A study of Brassica napus with 48 samples.

Results

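The 8 arrays described here compared flower buds of 1 to 3 mm (middle buds) with flower buds under 1 mm (small buds) on male-sterile plants of the oilseed rape (Brassica napus) line J10. They were taken by their titles, 4 arrays of middle and 4 of small buds of J10A, out of 48 arrays in the series, and all probe sets other than array controls entered. The sterile J10 plants were MsMsrfrf, so both bud sizes carried the dominant sterility allele Ms without the restorer allele Rf. Middle and small buds of 2 further kinds of plant, with 8 arrays each, served for comparison. Fertile J10 plants were MsMsRfrf and shared the homozygous Ms with the sterile ones, and sterile J03 plants were Msmsrfrf, from a line in which Ms is heterozygous. The submitters' design assigned small buds to the tetrad stage and middle buds to the uninucleate stage of pollen development, and the labels place the small buds before and the middle buds during anther abortion. Whole buds were harvested with stamens and pistils in a field, so anthers were not separated from other floral organs. No probe set here is named for Ms or Rf, and the genotypes are those of the labels. In such bulk samples, fewer cells of a type and less RNA per cell cannot be told apart.

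The tapetum is the innermost layer of the anther wall. It feeds the developing microspores, releases the callase that frees them from the tetrad, and makes precursors of the pollen wall and coat, including sporopollenin building blocks and hydroxycinnamoyl spermidines. In Arabidopsis the transcription factor AMS sits high in the programme that switches on tapetal lipid, wall and coat genes. In genic male sterility the pollen fails through a nuclear gene that acts in the anther, and the failure often shows in the tapetum or in the release of the microspores.

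RNA was hybridised to the Affymetrix ATH1 array, whose probes were designed for Arabidopsis thaliana. A gene name therefore stands for the probe set of the Arabidopsis gene, which can bind several rapeseed copies, and gene functions given below are known from Arabidopsis. Each group was read as 2 biological replicates hybridised 2 times each, although the titles do not state outright which arrays share RNA. Arrays of the same replicate number correlated at 0.843 to 0.882 in small and 0.776 to 0.837 in middle sterile J10 buds. For arrays of different numbers the correlations were 0.843 to 0.858 and 0.748 to 0.841, so they bear this reading out only in part. Levels are the deposited signal (scaled by the authors to a 2% trimmed mean of 500.0 per array), given for the 4 arrays of a group in the order replicate 1 first and second hybridisation, then replicate 2 first and second hybridisation. Means ± SD are over the 2 replicates (n = 2). Changes are middle minus small buds on the log2(signal + 113.0) scale with their SE, and a change was called at an adjusted p under 0.05 in limma with Benjamini-Hochberg adjustment over the 14023 probe sets tested. This scale understates the changes of dim probe sets.

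One array stood apart. The second hybridisation of middle-bud replicate 2 had a median signal of 411.6, against 347.9 to 360.8 on the other 7 arrays, and its 99th percentile was 3173 against 5381 to 5957, so its bright probe sets read low. Its mean correlation with the other arrays of its group was 0.758, whereas the other middle-bud arrays had 0.809 to 0.820 and the small-bud arrays 0.844 to 0.863. Results that rest on this array are given with and without it. The log2 ratio of 3' to 5' signal over control transcripts, a stand-in for RNA integrity, was 1.62 and 1.72 in the 2 small-bud replicates and 1.805 and 1.496 in the 2 middle-bud replicates, which overlap. The same ratio from the other set of control probe sets was -0.628 and -1.02 in small and -0.620 and -0.373 in middle buds, both middle-bud replicates lying higher, and its part in the results was not tested. On single arrays the first ratio was 1.482 to 1.81 in sterile J10 middle buds. It was 0.805 to 1.703 in those of fertile J10 and 0.859 to 1.064 in those of sterile J03. Small buds of the same kinds of plant, in that order, gave 1.527 to 1.735, 0.957 to 1.605 and 0.747 to 1.317. Sterile J10 therefore lay above sterile J03 on every array of both sizes. Counts with this ratio as covariate are given in the last section for the sterile change and its difference from fertile J10.

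Between small and middle sterile buds, 77 probe sets were called, 0.549% of those tested. Of these, 51 (0.364%) rose and 26 (0.185%) fell, with changes from -2.30 to 5.85. Without the array that stood apart 86 were called (0.611%), 64 higher and 22 lower (0.455% and 0.156%). Of the 51 rises 49 were called in both fits, but of the 26 falls only 14 were. Leaving out a whole replicate moved the count further, to 21 and 29 without small-bud replicate 1 or 2, to 31 without middle-bud replicate 2 and to 139 without middle-bud replicate 1. A total of 1335 probe sets had an unadjusted p under 0.05 (9.52%), where chance alone gives 701. The annotation gave 1 gene to 34 of the 77 called probe sets and several genes to 5, and left 38 without a name. Changes of the unnamed ones ran from -2.30 to 4.42. The genes below follow a rule of size within the called one-gene probe sets, with AMS, A9, SHT and 3 further genes always included.

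The 1-gene probe set with the largest rise and the tapetum marker A9 both belonged to the list of tapetum products, pollen wall and callose. AT3G23770 encodes a beta-1,3-glucanase-like protein of the glycosyl hydrolase family that includes the anther gene A6. Its signal was 182.8, 509.4, 284.2 and 387.8 in small buds and 26366, 20540, 41545 and 17683 in middle buds. The lowest middle-bud array lay far above the highest small-bud array. The mean went from 341 ± 7.14 to 26533 ± 4357, a 77.8-fold higher signal, and the change of 5.85 ± 0.78 was called (limma adjusted p = 0.000257). In large sterile buds, over 3 mm, it stood at 16540 ± 3811. The tapetum gene A9 (AT5G07230) encodes a lipid-transfer-like protein and had signals of 620.5, 667.3, 556.7 and 809.2 in small buds against 3874, 4334, 5922 and 3493 in middle buds. The groups did not overlap, and the rise of 2.52 ± 0.26 had an adjusted p of 1.37e-05 in limma. A9 remained at 4556 ± 527 in large sterile buds.

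**Figure D1:**
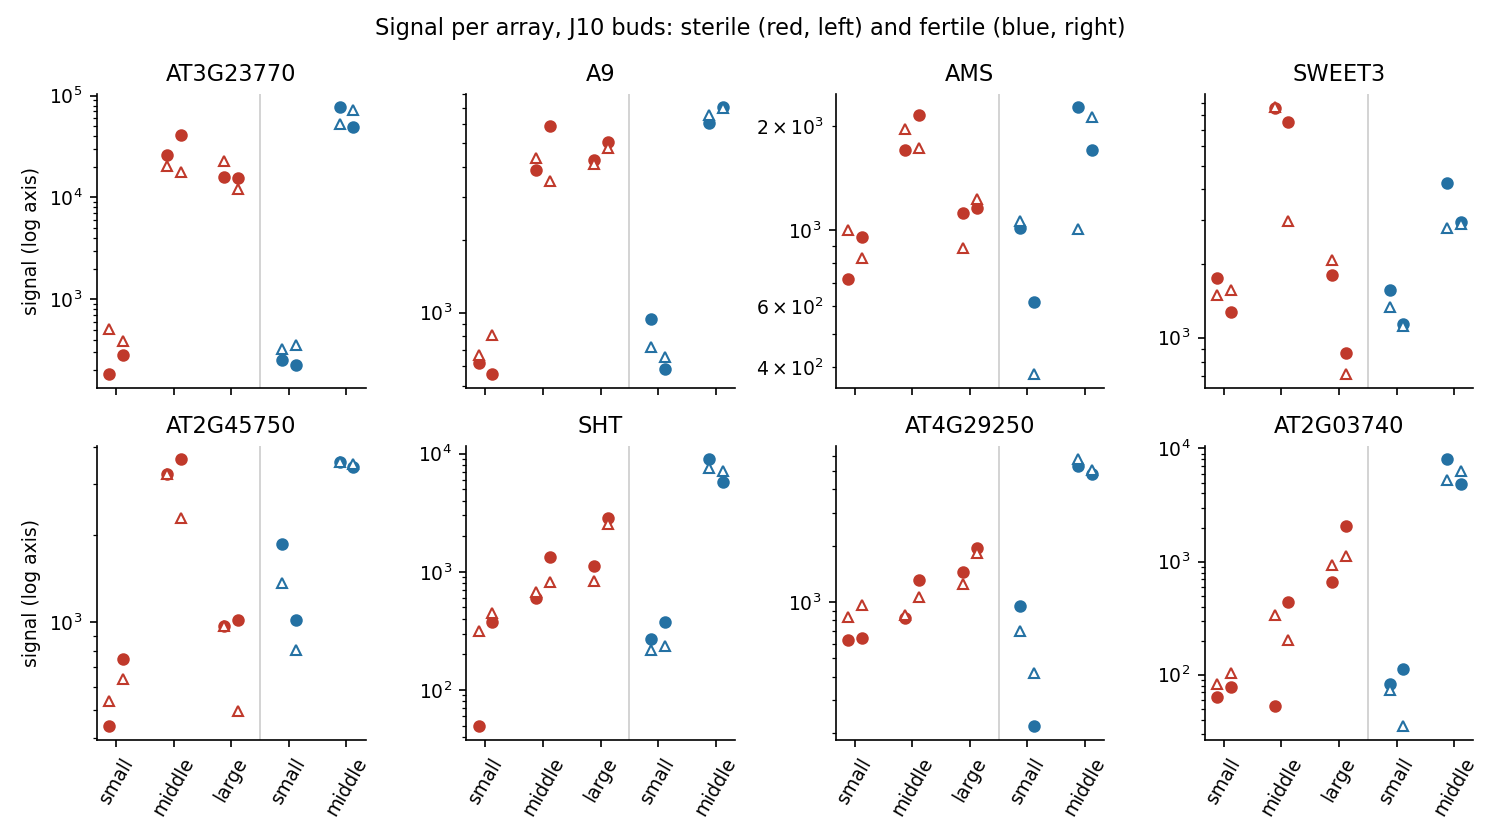
Signal of 8 genes on each array of sterile J10 (red; small, middle and large buds) and fertile J10 (blue; small and middle buds), on log axes that differ between panels; filled circles are first and open triangles second hybridisations, with replicate 1 left and replicate 2 right. AT3G23770 and A9 were high in middle buds of both kinds of plant, whereas AT2G03740, SHT and AT4G29250 reached 6124, 7330 and 5242 on average in fertile middle buds and 259, 860 and 1013 in sterile ones.

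Several rises were of enzymes whose substrates are less well known. AT4G30470, a Rossmann-fold protein related to cinnamoyl-CoA reductases, went from 954 ± 190 to 6249 ± 438 and rose by 2.58 ± 0.35 (limma adjusted p = 0.000263). The aspartyl protease family gene AT1G25510 read 186.8, 61.1, 51.4 and 51.4 in small buds and 1245, 1464, 1614 and 468.2 in middle buds, without overlap, and rose by 2.64 ± 0.38. A pair of methyltransferase family genes also rose. AT2G45750 read 438.9, 535.9, 751.2 and 639.0 in small buds and 3241, 3237, 3648 and 2284 in middle buds and rose by 2.19 ± 0.28, and AT2G41040 went from 77.3 ± 26.6 to 639 ± 7.88 and rose by 1.99 ± 0.38. In large sterile buds AT2G45750 was back at 864 ± 153, while AT2G41040 was at 652 ± 359. AT1G02470, a START-like family gene, rose by 2.15 ± 0.32, and AT1G47980, annotated in Arabidopsis as desiccation-related, by 2.38 ± 0.49. AT2G41040 was called in 10 and AT1G47980 in 9 of 14 alternatives, and neither with first hybridisations only. The glutaredoxin family gene AT2G47880 went from 240 ± 118 to 1096 ± 2.12 and rose by 1.88 ± 0.29. The lipid-transfer family gene AT5G52160 read 1367, 670.2, 1031 and 436.5 in small buds and 5310, 5369, 6492 and 2818 in middle buds. Its groups did not overlap either, but with an SE of 0.56 its rise of 2.41 was called narrowly (limma adjusted p = 0.0468; 0.0174 without the array that stood apart). The call was lost in 8 of 14 alternatives, every fit without 1 of the 4 replicates among them, with adjusted p up to 0.314. In large sterile buds it read 920 ± 607.

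Sugar transport and jasmonate methylation were represented as well. SWEET proteins export sugars across membranes, and SWEET genes expressed in anthers supply the pollen in Arabidopsis. SWEET3 read 1747, 1490, 1276 and 1564 in small buds and 8531, 8662, 7501 and 2965 in middle buds, the last value being that of the array that stood apart. It rose by 2.00 ± 0.31 with that array and by 2.33 without it, and was 1361 ± 813 in large sterile buds. SWEET4 rose by 1.07 ± 0.22, from 853 ± 144 to 1986 ± 427. SWEET3 was called in all 14 alternatives and SWEET4 in 9. These were the 2 called members among 16 tested genes of sugar import and cleavage, at a background of 0.364% of all probe sets that rose. The median change of the list was -0.03 against -0.02 over all probe sets tested. The other members ranged from SWEET14 at -1.12 to SWEET17 at 0.36. JMT, the methyltransferase that turns jasmonic acid into its methyl ester, read 275.4, 24.1, 319.4 and 74.5 in small buds and 1114, 494.7, 1366 and 636.9 in middle buds. In both groups the second hybridisations read below the first ones, yet the groups did not overlap. JMT rose by 1.90 ± 0.35 (limma adjusted p = 0.00917). The call held in 10 of 14 alternatives and was lost with first hybridisations only, among others.

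As a list, 12 genes of tapetum products, pollen wall and callose were tested out of 36, and 3 rose (AT3G23770, A9 and AT5G52160), at a background of 0.364% of all probe sets that rose. None fell, and the median change was 1.03, against -0.02 over all probe sets. In 10 of the 12 both middle-bud replicates lay above both small-bud replicates, where 16.8% of all probe sets tested did so. Like the other lists here, this list was chosen with earlier results of these data known. Its excess over all probe sets is therefore not independent support. The same 12 genes included 7 called rises in fertile J10 (1.1% of all probe sets rose there), with a median of 1.84, and 8 in sterile J03 (1.28%), with a median of 1.96. AT1G33430, a galactosyltransferase family gene of the pollen wall, had a change of 0.92 (adjusted p = 0.099 in limma) and was called without the array that stood apart, at 1.08 (adjusted p = 0.0235). ATA27, a tapetal glucosidase-like gene, went from 66.8 ± 7.14 to 543 ± 151, with every small-bud array at or under 123.6 and every middle-bud array at or above 301.7. Its change of 1.86 missed the threshold (limma adjusted p = 0.053).

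Regulators of the early anther and tapetum were represented by 5 tested genes, and 0 of them were called in limma, at a background of 0.549%, from which nothing is read. AMS read 718.8, 999.9, 954.4 and 827.3 in small buds and 1703, 1964, 2164 and 1728 in middle buds. All 4 middle-bud arrays lay above all small-bud arrays, with a change of 1.02 ± 0.27 (adjusted p = 0.0989). In fertile J10 its change of 1.13 ± 0.27 was called (adjusted p = 0.0245), and the difference between both changes was -0.11 ± 0.38. EMS1, the receptor kinase that specifies tapetal cells, changed by 0.77 and the bHLH gene AT2G31210 by 0.59, and neither was called. The glutaredoxin genes ROXY1 and ROXY2, which act redundantly in anther lobe formation, had changes of 0.48 and -1.04 with overlapping arrays. Without the array that stood apart the changes were -0.07 and -1.31. For ROXY2 both middle-bud replicates lay below both small-bud replicates, as for 19.3% of all probe sets tested.

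Lists for other cell types and organelles gave no calls, but at 0.549% called over all probe sets lists of these sizes would give under 1 call, so nothing is read from the count. Among 24 probe sets of maturing pollen, a list that includes the pollen LIM protein PLIM2b, the reproductive actins ACT11 and ACT12 and the male germline histone MGH3, 0 passed the threshold in limma, with a median change of -0.04. Their summed signal was 8310 to 11403 on small-bud arrays and 9380 to 10683 on middle-bud arrays. Likewise 0 probe sets were called among 67 for plastid-encoded genes, 16 for mitochondrion-encoded genes, 16 for nuclear photosynthesis genes, 12 for floral identity genes, 9 for pistil and ovule genes, 10 for cell division genes, 19 for expansins and xyloglucan enzymes and 2 for meiosis genes. Floral identity genes were present in both groups, with a summed signal of 5230 to 7694 in small and 5651 to 7282 in middle buds. Summed signal of the pistil and ovule genes was 4650 to 5525 in small and 4031 to 5658 in middle buds, and that of the photosynthesis genes 16917 to 19848 and 16734 to 24587. For the tapetum list, by contrast, the summed signal was 5394 to 6625 in small buds and 31350 to 62547 in middle buds, mostly from AT3G23770.

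**Figure D2:**
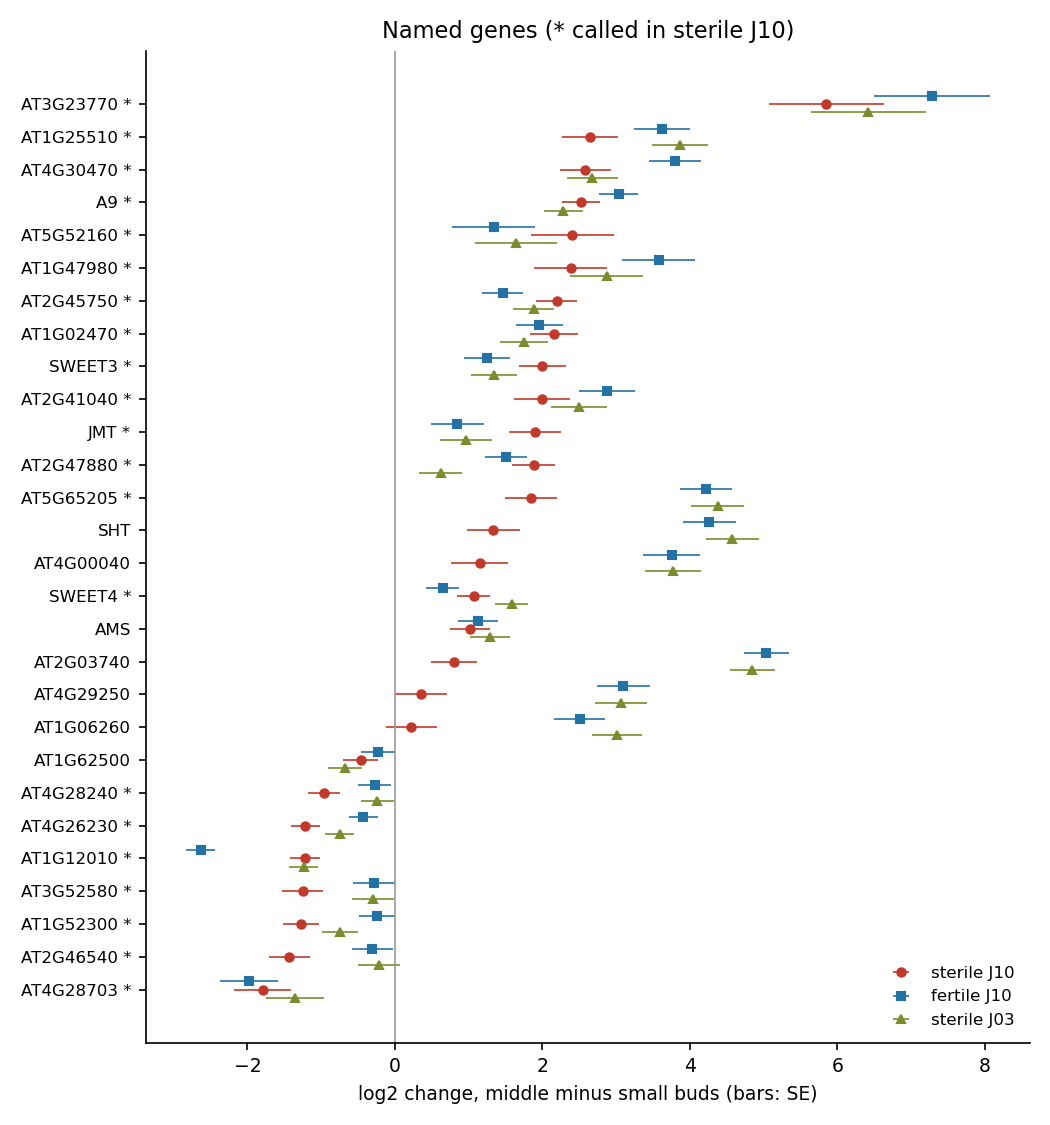
Change from small to middle buds (log2, bars SE) of the named genes in sterile J10 (red circles), fertile J10 (blue squares) and sterile J03 (green triangles), with an asterisk where the change was called in sterile J10. From AT3G23770 down to AT2G47880 the sterile J10 changes lie between 5.85 and 1.88; AT2G03740, SHT, AT4G29250 and AT1G06260 lie at 0.80, 1.33, 0.35 and 0.22 in sterile J10 and further right in the other plants.

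The falls were smaller than the leading rises. AT1G12010, an ACC oxidase family gene that acts in ethylene synthesis, read 2579, 2837, 2644 and 3385 in small buds and 1083, 1380, 900.0 and 1315 in middle buds. The groups did not overlap, and it fell by 1.22 ± 0.20 (limma adjusted p = 0.0023), or by 1.35 without the array that stood apart. It was the 1 called gene among 4 of ethylene and polyamine metabolism, at a background of 0.185% of all probe sets that fell. The cupin family gene AT4G28703 read 527.9, 614.8, 425.4 and 503.1 in small buds and 68.6, 59.7, 70.6 and 73.8 in middle buds. It fell by 1.79 ± 0.39 (limma adjusted p = 0.0273) and by 1.80 without that array, and its middle-bud values lay near the dim end of the arrays, below the offset added before the logarithm. The fall was called in 8 of 14 alternatives, and in none that left out 1 replicate of small or middle sterile buds.

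Other named falls lost their call without the array that stood apart. AT2G46540 read 1670, 1289, 1243 and 1363 in small buds and 378.0, 830.3, 951.3 and 77.5 in middle buds, the last value from that array. It fell by 1.43 ± 0.28 with the array (limma adjusted p = 0.0123) and had a change of -0.81 without it (adjusted p = 0.219). The wound-responsive family gene AT4G28240 fell by 0.96 ± 0.22, and its change was -0.90 without the array (adjusted p = 0.0685).

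Cytosolic ribosomal proteins, the protein components of the translating ribosome, lay lower in middle than in small buds. Of 211 listed genes 122 were named on the array and 114 were tested. None rose and 4 fell, at a background of 0.185% of probe sets that fell. The number of falls was 0 with first hybridisations only or without small-bud replicate 2, 1 without small-bud replicate 1 or middle-bud replicate 2, and 16 without middle-bud replicate 1. The median change was -0.51 against -0.02 over all probe sets, and 102 of the 114 changes were below 0. In 79 of 114 (69.3%) both middle-bud replicates lay below both small-bud replicates, as against 19.3% of all probe sets tested. This list too was chosen with earlier results of these data known. The median log2 signal of the 114 probe sets was 11.70, 11.56, 11.71 and 11.60 on the small-bud arrays and 11.07, 11.26, 11.50 and 10.89 on the middle-bud arrays. Every middle-bud array therefore lay below every small-bud array on this measure, the array that stood apart lowest.

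The ribosomal protein genes named here depended in different degrees on that array. RPL37 (AT1G52300) read 36453, 31653, 36924 and 48081 in small buds and 18960, 16841, 20105 and 9063 in middle buds, and fell by 1.28 ± 0.24 with the array and by 0.99 without it (limma adjusted p = 0.0103 and 0.0296). RPL31 (AT4G26230) read 13748, 10324, 14043 and 14528 against 6521, 6239, 7032 and 3310, and fell by 1.22 ± 0.20 with and 0.95 without the array (adjusted p = 0.0023 and 0.00998). For both genes all 4 middle-bud arrays lay below all small-bud arrays. RPL37 was called in 8 and RPL31 in 10 of 14 alternatives. Neither was called with first hybridisations only or in a fit of the compared groups alone. RPS14 (AT3G52580) read 2978, 3192, 2902 and 2948 against 1899, 1732, 1661 and 330.6. It fell by 1.25 ± 0.28, and its change without the array was -0.75 (limma adjusted p = 0.149).

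Without the array, 2 of the 114 ribosomal protein probe sets fell (0.156% of all probe sets fell in that fit), the median change was -0.33, and 100 changes were below 0. Both middle-bud replicates lay below both small-bud replicates for 69 of 114 (60.5%), as against 19.7% of all probe sets. In fertile J10 the list had a median change of -0.10 with 0 calls in limma and 74 changes below 0, and 30 of 114 (26.3%) had both middle replicates below both small ones, against 19.3% of all probe sets. In sterile J03 the median was -0.35 with 2 falls (0.72% of all probe sets fell there), and 74 of 114 (64.9%) lay below, against 23% of all. The difference between the sterile and fertile J10 changes had a median of -0.37 over the list, or -0.23 without the array that stood apart, and was called for 0 of the 114 in either fit (lowest adjusted p in limma 0.451, or 0.343 without the array). Ribosomal protein genes form multigene families of close paralogues, so a probe set may read several of them. With quantile normalisation, which forces all arrays to 1 distribution, the median was -0.34 with 2 falls.

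**Figure D3:**
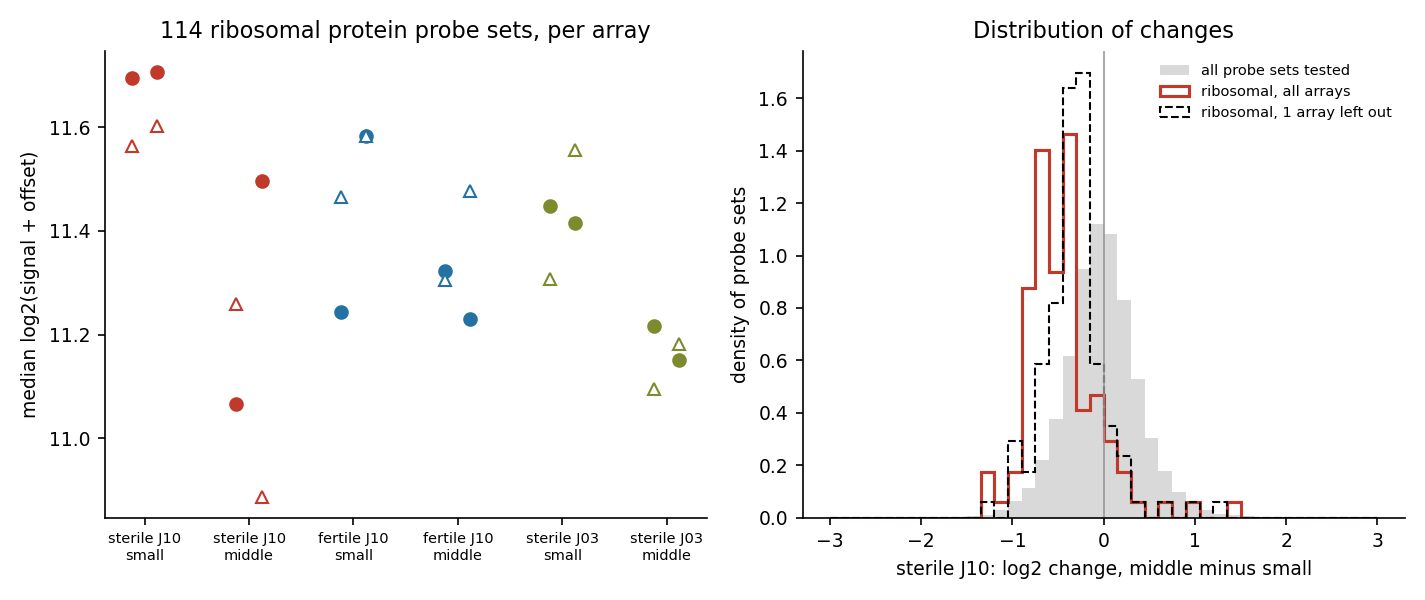
Left, median log2(signal + 113.0) of 114 cytosolic ribosomal protein probe sets on each array of 6 groups (circles first and triangles second hybridisations; replicate 1 left); right, distribution of their changes in sterile J10 with all arrays (red) and with 1 array left out (dashed), over that of all 14023 probe sets tested (grey). The small-bud arrays of sterile J10 lie at 11.56 to 11.71 and the middle-bud arrays at 10.89 to 11.50, and the median of the list moves from -0.51 to -0.33 when the array that stood apart is left out.

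The sterile changes were next set beside those of fertile J10, to ask how far sterile buds followed the course of fertile ones. In fertile J10, 217 probe sets were called (1.55%), 154 higher (1.1%) and 63 lower (0.449%). Of the 51 sterile rises, 38 (74.5%) were also called rises in fertile J10, and these made up 24.7% of the fertile rises. Of the 26 sterile falls, 7 (26.9%) were also called falls in fertile J10, which were 11.1% of the fertile falls. The 154 fertile rises had a median change of 1.72 in fertile and 0.78 in sterile buds, and 145 of them had the same sign in sterile buds. Conversely, the 51 sterile rises had a median of 1.88 in sterile and 2.096 in fertile buds, and the 26 sterile falls medians of -1.22 and -0.40. Each list was chosen in 1 of the 2 kinds of plant, which favours larger changes there.

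A test of the difference between the sterile and fertile J10 changes called 9 probe sets (0.0642%), 8 with a lower (0.057%) and 1 with a higher change (0.00713%) in sterile buds. All 8 with a lower change had risen in fertile buds. Without the array that stood apart 7 were called (0.0498%). The count fell to 1 without sterile small-bud replicate 2, sterile middle-bud replicate 1 or either fertile middle-bud replicate, and AT2G03740 was called in every one of these fits. Of the 9 probe sets 3 had 1 gene. AT2G03740, a late embryogenesis abundant family gene known from maturing pollen, read 63.3, 82.2, 77.6 and 104.2 in small sterile buds and 53.0, 336.5, 442.0 and 202.6 in middle ones, so the arrays overlapped. The means were 81.8 ± 12.8 and 259 ± 90.2 in sterile buds, as against 75.4 ± 3.18 and 6124 ± 794 in fertile J10. A probe set could pass the signal filter through any group, also through fertile buds alone. AT2G03740 did not pass it in small or middle sterile J10 buds and entered through other groups. Its difference from fertile J10 was also called in the fit without the filter. The change was 0.80 ± 0.31 in sterile (adjusted p = 0.361) and 5.04 ± 0.31 in fertile buds, and the difference of -4.24 ± 0.44 was called (limma adjusted p = 1.42e-05). In large sterile buds it reached 1195 ± 558, still under the fertile middle-bud level.

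SHT, the acyltransferase that makes hydroxycinnamoyl spermidines of the pollen coat in the tapetum, read 49.3, 314.0, 376.0 and 446.1 in small and 597.4, 676.8, 1344 and 820.2 in middle sterile buds. All middle-bud arrays lay above all small-bud arrays, but the change of 1.33 ± 0.36 was not called (limma adjusted p = 0.115). In fertile J10 SHT went from 274 ± 40.9 to 7330 ± 1301, a rise of 4.26 ± 0.36, and the difference of -2.93 ± 0.51 had an adjusted p of 0.0231. AT4G29250, an acyltransferase family gene of the tapetum list, read 629.9, 835.7, 641.5 and 959.5 in small and 819.8, 857.2, 1305 and 1068 in middle sterile buds. These arrays overlapped, with a change of 0.35 ± 0.36, while fertile buds went from 573 ± 361 to 5242 ± 433. The difference was -2.74 ± 0.51 (limma adjusted p = 0.0373). Of 18 alternatives, the difference from fertile J10 was called in 9 for SHT and in 7 for AT4G29250. AT4G00040, a chalcone synthase family gene of the same list, had changes of 1.15 ± 0.39 and 3.75 ± 0.39, and their difference of -2.61 missed the threshold (adjusted p = 0.0909). AT1G12010 fell in both kinds of plant, by 1.22 in sterile and by 2.63 in fertile buds, with a difference of 1.41 ± 0.28 (limma adjusted p = 0.061).

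**Figure D4:**
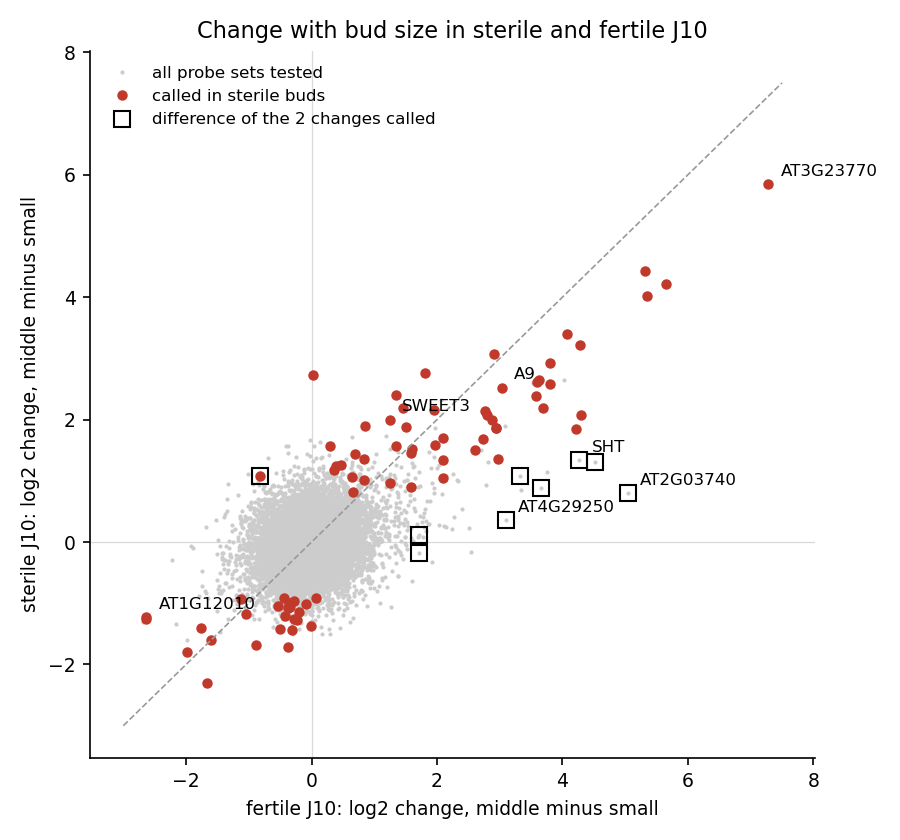
Change from small to middle buds (log2) in fertile J10 on the horizontal and in sterile J10 on the vertical axis, for 14023 probe sets (grey); red points were called in sterile buds, squares mark the 9 called differences between both changes, and the dashed line marks equal changes. AT2G03740, SHT and AT4G29250 lie far right of the line at 0.80, 1.33 and 0.35 in sterile buds, and AT3G23770 at the top changed by 5.85 in sterile and 7.28 in fertile buds.

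For the leading rises no difference from fertile J10 was called. AT3G23770 rose by 7.28 ± 0.78 in fertile buds, where it reached 63095 ± 3155 in middle buds, and the difference of -1.43 ± 1.11 had an adjusted p of 0.915 in limma. A9 rose by 3.03 ± 0.26 in fertile buds, with a difference of -0.51 ± 0.37, and AT4G30470 by 3.80 ± 0.35, with a difference of -1.21 ± 0.49. SWEET3 and AT2G45750 rose by 1.25 ± 0.31 and 1.46 ± 0.28 in fertile buds, and their differences were 0.75 ± 0.45 and 0.73 ± 0.39. Simulated data showed a limit here, since the test recovered 4% of differences of 1 and 44% of differences of 1.5 on the log2 scale. It recovered 52% of differences of 2 and 90% of differences of 3. A difference that was not called is therefore not shown to be absent.

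Sterile J03 buds differ from sterile J10 buds in the dose of Ms as well as in the line. Their arrays also had a lower first 3' to 5' ratio in both bud sizes, so these differences cannot be told apart. In sterile J03, 281 probe sets were called (2%), 180 higher (1.28%) and 101 lower (0.72%). Of the 51 rises in sterile J10, 39 (76.5%) were also called in sterile J03, 21.7% of its rises, and of the 26 falls 7 (26.9%), which were 6.93% of its falls. The difference between the J10 and J03 changes was called for 14 probe sets (0.0998%), 13 with a lower (0.0927%) and 1 with a higher change (0.00713%) in J10. Without the array that stood apart 15 were called (0.107%), and 4 without sterile J10 small-bud replicate 2. Of the 14 probe sets called with all arrays, 5 were also called against fertile J10, among them AT2G03740, SHT and AT4G29250.

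These 3 genes changed less in sterile J10 than in sterile J03. AT2G03740 went from 70.6 ± 19.7 to 5279 ± 1606 in sterile J03, and the difference from J10 was -4.05 ± 0.44 (limma adjusted p = 3.41e-05). SHT went from 260 ± 48.7 to 8268 ± 2271 there, with a difference of -3.24 ± 0.51 (adjusted p = 0.00509), and AT4G29250 from 472 ± 143 to 4700 ± 508, with a difference of -2.71 ± 0.51 (adjusted p = 0.0226). These J03 levels lay near those of fertile J10 middle buds, a side-by-side reading that was not tested. AT1G06260, a papain-type cysteine protease family gene, read 446.0, 405.1, 294.2 and 653.1 in small and 673.0, 648.9, 277.7 and 605.9 in middle sterile J10 buds, which overlap. In sterile J03 it went from 241 ± 202 to 2493 ± 285, and the difference was -2.79 ± 0.48 (limma adjusted p = 0.0102). Of 18 alternatives, the difference from sterile J03 was called in 14 for SHT, 10 for AT4G29250 and 12 for AT1G06260.

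AT5G65205, a Rossmann-fold family gene, rose in all 3 kinds of plant. It read 161.3, 67.6, 55.1 and 224.4 in small and 330.0, 751.1, 840.7 and 1159 in middle sterile J10 buds, without overlap, and rose by 1.84 ± 0.35. It rose by 4.38 ± 0.35 in sterile J03, a difference of -2.53 ± 0.50 (limma adjusted p = 0.0402; called in 6 of 18 alternatives, with adjusted p up to 0.393), and by 4.22 ± 0.35 in fertile J10, a difference of -2.38 ± 0.50 that missed the threshold (adjusted p = 0.0909).

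Of the 77 calls in sterile J10, 25 were called neither in fertile J10 nor in sterile J03, 8 of the rises and 17 of the falls. Among the genes named here these were AT5G52160 and JMT as rises, and AT2G46540, AT4G28240 and the ribosomal protein genes RPL37 and RPS14 as falls. JMT had changes of 0.85 ± 0.35 in fertile J10 and 0.97 ± 0.35 in sterile J03, where it was not called, and the differences of 1.05 ± 0.50 and 0.93 ± 0.50 were not called either. For none of these genes was the difference from fertile J10 or from sterile J03 called in limma, so they are not shown to be particular to sterile J10. AT1G62500, a proline-rich lipid-transfer family gene, read 12083 ± 344 in small and 9476 ± 1556 in middle sterile buds. Its change was -0.47 ± 0.23 with and -0.05 without the array that stood apart, and it was called in neither fit.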

How the data were processed

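Total RNA of whole flower buds was hybridised to Affymetrix ATH1 arrays. The authors deposited linear signal intensities, which their processing notes credit to MAS5 (version not given in the sources used here). Scaling by the authors had brought the 2% trimmed mean of every array to 500.0. The table held 22810 probe sets, 64 of them controls. Of the others 13513 paired with 1 gene, 503 with several and 8730 were unnamed here.

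Hybridisations of a replicate were averaged on the log2(signal + 113.0) scale, the offset being the middle value, over arrays, of the 25th percentile of signal. Probe sets entered if both replicates of at least 1 group reached the array median, which left 14023. All 12 groups entered 1 linear model in limma 3.58.1 (R 4.3.3; intensity trend; 12 residual degrees of freedom), with Benjamini-Hochberg adjustment per comparison, and all adjusted p-values are limma's. The filter spans all groups. In simulated data the comparison of middle and small sterile buds recovered 24% of changes of 1, 76% of changes of 1.5 and 82% of changes of 2 (log2). Nothing in the labels says which plants made up a replicate, so p-values measure changes against the spread between samples. That spread was estimated over all 12 groups together, not from the small and middle sterile J10 buds alone. The number of replicates, 2 a group, limits the precision.

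The members and the 26 gene lists were chosen with earlier results of these data known. Of the 26 lists, those of heat shock and aquaporin genes had 0 members named on the array. Named genes were the 12 largest rises and 12 largest falls among called one-gene probe sets whose replicates did not overlap, up to 4 called members per list, AMS, A9, SHT, AT2G03740, AT3G23770 and AT1G62500, and the 5 largest called differences, filled up by smallest p. A pair of genes that the rule takes in is not reported here. Alternatives changed the offset, filter, normalisation, samples, hybridisations, replicate block, RNA ratio and trend. Detection calls were not used here. Plots were made using matplotlib 3.10.9 under Python 3.11.15.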

Additional observations from a re-analysis of the deposited data

Results flagged for a closer look

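Single arrays that lay far from the other 3 of their group were sought among the named genes and array measures of sterile J10. Of 66 groups of 4 arrays tested 9 had such an array, and chance gives about 1 in 20. In middle buds, the second hybridisation of replicate 2 read 411.6 in median signal, against 352.6 to 356.8 on the other 3 arrays. The same array read 2964.7 for SWEET3 (others 7501 to 8662), 330.6 for AT3G52580 (others 1661 to 1899) and 3309.5 for AT4G26230 (others 6239 to 7032). The first hybridisation of middle-bud replicate 2 read 277.7 for AT1G06260, below 605.9 to 673.0 on the others. In small buds, the first hybridisation of replicate 1 read 186.8 for AT1G25510 (others 51.4 to 61.1) and 347.9 in median signal (others 359.4 to 360.8). The second hybridisation of replicate 1 read 10323.7 for AT4G26230, below the 13748 to 14528 of the others, and the first hybridisation of replicate 2 read 142.1 for AT2G41040 (others 50.1 to 59.1).

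The change from small to middle buds differed between kinds of plant for a few named genes, by the test of the difference itself in limma. Against fertile J10 the sterile J10 change was lower for AT2G03740 (-4.24), SHT (-2.93) and AT4G29250 (-2.74). Against sterile J03 it was lower for AT2G03740 (-4.05), SHT (-3.24), AT1G06260 (-2.79), AT4G29250 (-2.71) and AT5G65205 (-2.53).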

How the results depend on the processing

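With 2 replicates a group, the counts of calls moved widely with the settings, and no called change of a named gene reversed under any alternative. The count for middle against small sterile buds (77) was 42 with the compared groups only, 39 with first hybridisations only, 39 without the intensity trend and 145 when the 48 arrays were fitted singly with replicate as random block (estimated correlation 0.0433). It was 64 without the filter, 78 with an offset of 16, 79 with quantile normalisation, 94 with the RNA ratio (3' over 5') as covariate and 86 without the array that stood apart. Leaving out 1 replicate gave 21 to 139 calls. These were 21 and 29 without small-bud replicate 1 or 2, 31 without middle-bud replicate 2, and 139 (33 higher, 106 lower) without middle-bud replicate 1, which leaves the array that stood apart as 1 of 2 in its group, and a lone replicate is assumed to vary like the other groups.

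The difference from fertile J10 (9 calls) gave 2 with an offset of 16, 5 without the filter, 2 with the compared groups only, 32 with the random block, 3 with first hybridisations, 14 with the covariate and 1 without the trend. Leaving out 1 replicate gave 1 to 11 calls, with 1 left without sterile small-bud replicate 2, sterile middle-bud replicate 1 or either fertile middle-bud replicate, 3 without fertile small-bud replicate 1 and 4 without sterile small-bud replicate 1. The difference from sterile J03 (14 calls) gave 26 with the random block, 4 with first hybridisations, 3 without the trend, and 4 to 19 with 1 replicate left out, with 4 left without sterile J10 small-bud replicate 2 and 6 or 5 without small-bud replicate 1 or middle-bud replicate 2 of J03. The cause of these shifts was not tested.

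AT3G23770, AT1G25510, AT4G30470, A9, AT2G45750 and SWEET3 were called in all 14 alternatives, the only 6 of the 22 called genes under the naming rule that were. AT2G03740 was called in all 18 alternatives of both differences, SHT in 9 and 14 of them and AT4G29250 in 7 and 10. Against sterile J03, AT1G06260 was called in 12 and AT5G65205 in 6 of the 18, the rest of these differences staying negative. With the replicate number as a block within each line, the counts were 130, 25 and 21, and the change of SHT and the differences of AT4G00040 and AT1G12010 from fertile J10 were called. The labels do not say that numbers pair the samples, and with 2 numbers a group the check is weak. Same-numbered small and middle sterile buds deviated together with a correlation of 0.146, and the other 3 pairs of J10 groups with 0.18, 0.238 and 0.293.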
